A study of Mus musculus with 10 samples.

Results

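The 10 genes followed here belong to platelet-derived growth factor (PDGF) and fibroblast growth factor (FGF) signalling, and were read in chromatin profiles of mouse cardiac fibroblasts. They were the ligand genes Pdgfa, Pdgfb, Pdgfc, Pdgfd, Fgf2 and Fgf7 and the receptor genes Pdgfra, Pdgfrb, Fgfr1 and Fgfr2. Every listed region whose gene name was 1 of these 10 was taken, which gave 263 of 340994 regions over 5 tables, and 10 of the 22473 genes named in those tables. The names came from the authors' assignment of each region to its nearest gene, so a region counted here need not lie in the gene or act on it.

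Primary cardiac fibroblasts had been profiled by CUT&Tag, where a transposase guided by a chromatin-bound antibody cuts and tags nearby DNA so that it can be sequenced. The TGF libraries came from cells given the fibrogenic cytokine TGF-β, and the siHK1 libraries from cells transfected with an siRNA against hexokinase 1 (HK1), a glycolytic enzyme, and then given TGF-β. Both conditions were probed for lactylation of histone H3 lysine 9 (H3K9lc) and for the transcription factors c-JUN, SMAD3 and NFATC2. A control (NC) was taken to be an H3K9lc library, and the library titled SI to be siHK1, from the tables named in their descriptions. No genotype, strain, age or number of animals was given in the labels, the TGF libraries carry no mention of a control siRNA there, and the loss of HK1 could not be checked in chromatin reads. Of the 10 libraries, 9 were used, with 1 library per condition and antibody, so replicate error is unknown throughout, no difference was tested, and each statement compares libraries rather than conditions.

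PDGF ligands form dimers that bind the receptor tyrosine kinases PDGFRα and PDGFRβ, while FGF ligands bind FGF receptors together with heparan sulfate chains at the cell surface. Both receptor families feed the MAP kinase and PI3 kinase routes that drive fibroblasts to divide and migrate. In the heart, PDGFRα is a familiar marker of fibroblasts and PDGFRβ of pericytes and other mural cells, and c-JUN is a subunit of AP-1, a factor that growth factor signalling itself activates.

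The depth behind the values differed widely among antibodies. Reads over listed regions, which are not the depths of the libraries, came to 2490853 (TGF) and 1419023 (siHK1) for H3K9lc over 34.6 Mb, to 4215447 and 2271336 for JUN over 37.7 Mb, to 563562 and 399897 for SMAD3 over 19.1 Mb, and to 575706 and 354599 for NFATC2 over 20.2 Mb. In the control table the NC library held 115572 reads and the TGF library 2313288 over 30.7 Mb. Nearly all listed regions had a called peak in at least 1 of their libraries. Libraries were scaled to equal totals over listed regions within a table, so a change common to all regions cannot be seen. The 95% intervals are exact binomial (Clopper-Pearson) intervals for ratios and exact Poisson intervals for levels, and cover counting error alone. PCR duplicates carry no new information, so the intervals are too narrow wherever duplicates remain in the counts. An interval beside a region's ratio is that of the ratio without the 0.5 added to each scaled count. JUN regions at promoters were listed for 9 of 10 fibroblast markers (all but Lum), 2 of 7 cardiomyocyte, 4 of 6 endothelial, 2 of 5 mural and 3 of 5 immune markers. They carried from 57.9 (cardiomyocyte) to 152 (fibroblast) reads per kb in the TGF library and from 24.6 to 84.8 in the siHK1 library. Myh7, Tnnt2, Actc1, Ryr2 and Nppa of the cardiomyocytes had no such region. JUN reads are not expression, and the part of other cells in the results was not tested.

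JUN regions at these genes lay mostly away from start sites, with 12 of 71 (16.9%) at promoters against 25.6% of all JUN regions and 37 (52.1%) in introns against 35.6%. Of the 71 JUN regions, 35 (49.3%) contained the AP-1 word TGANTCA, against 50.5% of all 72990 JUN regions of similar width (median 458 bp and 446 bp). TGANTCA reads the same on both strands, and 46 copies were found in the 35 regions. In the central 200 bp alone the word was in 14 of the 71 (19.7%), against 29.2% of all JUN regions. Those 14 regions had a median of 19.0 mean scaled reads and the other 57 of 37.4, with median log2 ratios of siHK1 over TGF of 0.06 and -0.10. A match describes letters, not a site of binding.

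Stretches around the word are printed for 6 genes whose strongest JUN region held it, so that the word can be seen in its setting. They were read from GRCm38, plus strand, 5′ to 3′, with TGANTCA in capitals and 60 bases on either side. Pdgfb is shown at chr15:80024442-80024568, Pdgfc at chr3:81017773-81017899, Fgf2 at chr3:37361019-37361247, Fgf7 at chr2:126065624-126065750, Fgfr1 at chr8:25465604-25465765 and Fgfr2 at chr7:130143470-130143596. The strongest region of Pdgfrb also held the word and is not shown, and those of Pdgfa, Pdgfd and Pdgfra did not hold it. The Fgf2 and Fgfr1 stretches hold a pair of words each. Of the 6 regions shown, only that of Pdgfc held the word in its central 200 bp. The Fgfr2 region has another copy farther along that is not shown.
Pdgfb AP-1 window: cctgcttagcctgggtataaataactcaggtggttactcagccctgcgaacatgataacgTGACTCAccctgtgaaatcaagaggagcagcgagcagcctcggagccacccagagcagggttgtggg
Pdgfc AP-1 window: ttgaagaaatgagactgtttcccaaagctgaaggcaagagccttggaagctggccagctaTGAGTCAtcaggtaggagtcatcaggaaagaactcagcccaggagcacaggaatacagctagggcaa
Fgf2 AP-1 window: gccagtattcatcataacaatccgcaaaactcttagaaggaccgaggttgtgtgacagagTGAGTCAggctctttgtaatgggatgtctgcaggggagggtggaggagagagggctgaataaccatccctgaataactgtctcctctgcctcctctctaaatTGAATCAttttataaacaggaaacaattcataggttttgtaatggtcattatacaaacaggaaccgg
Fgf7 AP-1 window: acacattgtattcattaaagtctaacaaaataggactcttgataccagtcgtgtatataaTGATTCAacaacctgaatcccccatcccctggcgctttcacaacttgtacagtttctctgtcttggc
Fgfr1 AP-1 window: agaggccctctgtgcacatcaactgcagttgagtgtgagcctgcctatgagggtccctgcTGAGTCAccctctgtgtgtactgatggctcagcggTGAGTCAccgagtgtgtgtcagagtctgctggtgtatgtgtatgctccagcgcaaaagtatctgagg
Fgfr2 AP-1 window: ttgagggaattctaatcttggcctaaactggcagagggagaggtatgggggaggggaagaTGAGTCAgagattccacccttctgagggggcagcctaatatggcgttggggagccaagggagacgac

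Pdgfb, which encodes the classical mural cell attractant PDGF-B, showed the largest JUN difference among genes with more than 100 reads. Its region at chr15:80024206-80025282, 9.2 kb upstream of the gene in an intron of Gm41361, had 255 reads in the TGF library and 80 in the siHK1 library. At equal totals this was a log2 ratio of -0.78 (95% interval -1.16 to -0.41). Its other region, at chr15:80027132-80027529, went from 19 to 15 reads, a ratio of 0.54 with an interval of -0.53 to 1.61. Summed, Pdgfb had 274 and 95 reads, a log2 ratio of -0.64 (-0.99 to -0.29) that lay at the 9.85th percentile of all genes. The fall therefore rested on 1 region. NFATC2 had a peak in both libraries at the same place (chr15:80024463-80025033) with 13 and 10 reads, a ratio of 0.31 whose interval ran from -1.03 to 1.62.

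Pdgfc, whose product must be cleaved before it can bind PDGFRα, had 9 JUN regions with 861 reads in TGF and 411 in siHK1. Its summed log2 ratio was -0.17 (-0.35 to -0.00352), just below 0. The strongest region, chr3:81017464-81018097 at 18.3 kb upstream, was nearly level at 257 and 134 reads (-0.05). A region nearer the gene, chr3:81030168-81030845, went from 209 to 87 reads (-0.37). The region that moved most lay 59.5 kb upstream at chr3:80976330-80976951, with 46 and 12 reads and a ratio of -1.02 (-2.10 to -0.11). Of the 9 regions 6 were below 0, and none was at a promoter.

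Pdgfa and Pdgfd carried fewer JUN reads. Pdgfa, which encodes the main ligand of PDGFRα, had 209 and 112 reads in 5 regions, a log2 ratio of -0.01 (-0.35 to 0.33). Pdgfd, which encodes a PDGFRβ ligand, had 31 and 10 reads in 2 regions, and its ratio of -0.74 could not be told from 0 at this depth (-1.93 to 0.33). Its far region at chr9:6036910-6037239, 131.3 kb upstream, fell from 19 reads to 1, while its promoter region at chr9:6168306-6168667 had 12 and 9.

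Both FGF ligand genes kept their summed JUN reads within counting error. Fgf2, which encodes a mitogen stored in the extracellular matrix, had 11 JUN regions with 966 and 538 reads, a log2 ratio of 0.05 (-0.11 to 0.20). Its strongest region was intronic at chr3:37360604-37361222 with 209 and 133 reads (0.24), and the region over its start site at chr3:37347822-37348854 had 127 and 70 (0.03). Within this flat sum, regions went both ways. An exon of the antisense gene Fgf2os at chr3:37342931-37343367 fell from 111 to 39 reads (-0.61, interval -1.18 to -0.08), and a region near an internal start at chr3:37377822-37378823 went from 86 to 67 (0.53, 0.05 to 1.01). A weak region at chr3:37330704-37330974 with 11 and 13 reads was above 2-fold (1.09), but at 0.95 with the authors' scaling, and its interval of -0.14 to 2.43 held 0.

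Fgf7, which encodes keratinocyte growth factor, had 389 and 221 reads in 8 regions, a log2 ratio of 0.08 (-0.17 to 0.32). It too was mixed. Its strongest region, in its own intron at chr2:126064708-126065846, fell from 171 to 66 reads, a ratio of -0.48 (-0.91 to -0.06). The region 2.9 kb upstream of the start at chr2:126031222-126031762 had 36 reads in TGF and 37 in siHK1 despite the lower siHK1 total, a ratio of 0.92 (0.23 to 1.63), and an intronic region at chr2:126039494-126040022 had 22 and 24 (interval 0.12 to 1.92).

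Among the receptors, Fgfr1 held the most JUN reads of all 10 genes. It had 1579 reads in TGF and 863 in siHK1 over 11 regions, a log2 ratio of 0.02 (-0.10 to 0.14). Most lay at chr8:25465326-25466421 (726 and 402 reads, 0.04) and chr8:25468212-25469386 (373 and 194, -0.05), 47.2 and 44.3 kb upstream of the gene in an intron of Gm31045. These were level between the libraries to within -0.14 to 0.22 and -0.31 to 0.20. Weak regions moved in both directions, with 31 and 35 reads at chr8:25438116-25438633 (1.05, interval 0.33 to 1.81, and 0.95 with the authors' scaling) and 28 and 7 at chr8:25491246-25491603 (-1.07, -2.55 to 0.12).

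Fgfr2, Pdgfrb and Pdgfra completed the receptors. Fgfr2 had 618 and 294 reads in 12 JUN regions, a log2 ratio of -0.18 (-0.38 to 0.02). Its strongest region, chr7:130143434-130144542, lay 17.9 kb past the 3′ end of the gene between genes and fell from 229 to 86 reads (-0.52, -0.90 to -0.16). Pdgfrb had 631 and 328 reads in 6 regions on chromosome 18, a log2 ratio of -0.05 (-0.25 to 0.14). An exonic Pdgfrb region was higher in siHK1 (144 and 112 reads, 0.53, 0.16 to 0.90), neighbouring intronic regions held 139 and 70 reads (-0.10) and 143 and 54 (-0.51), and a weaker intronic region went from 39 to 9 reads (-1.19, -2.45 to -0.15). Its promoter region had 79 and 32 reads (-0.41), with an interval of -1.05 to 0.20. Pdgfra, the fibroblast receptor, had only 170 and 86 reads in 5 regions, a log2 ratio of -0.09 (-0.48 to 0.29). The Pdgfra region chr5:75155847-75156383, inside the gene at an internal transcript start, had 36 and 33 reads (0.76, 0.04 to 1.49), while its exonic region (44 and 18 reads, -0.39) and the one 1.1 kb before an internal start (49 and 15, -0.80) had intervals across 0.

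Counted over regions, the shares past 2-fold for JUN were no higher at these genes than over all listed regions. Of 62 member regions with a mean of at least 10 scaled reads, 3 (4.84%) were at least 2-fold lower in siHK1, in Fgfr1, Pdgfc and Pdgfrb, against 6.7% of all such regions. Another 2 (3.23%), in Fgf2 and Fgfr1, were at least 2-fold higher against 3.81%, and neither passed with the authors' scaling. The higher Fgf2 region and the lower Fgfr1 region had under 10 scaled reads in 1 library. They reached the mean only through the library in which they were high, so these counts are descriptions. By summed reads, 2 of 10 genes (Pdgfb and Pdgfc) had an interval wholly below 0, against 11.8% of all genes, and none had one wholly above, against 10.3%. The median of the 10 summed log2 ratios was -0.07, and that of all 16970 genes was -0.02. A peak had been called in both libraries at 40 of the 71 regions (56.3%, against 49.7% of all), in TGF alone at 26 (36.6%, against 38.1%) and in siHK1 alone at 5 (7.04%, against 12.1%).

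**Figure D1:**
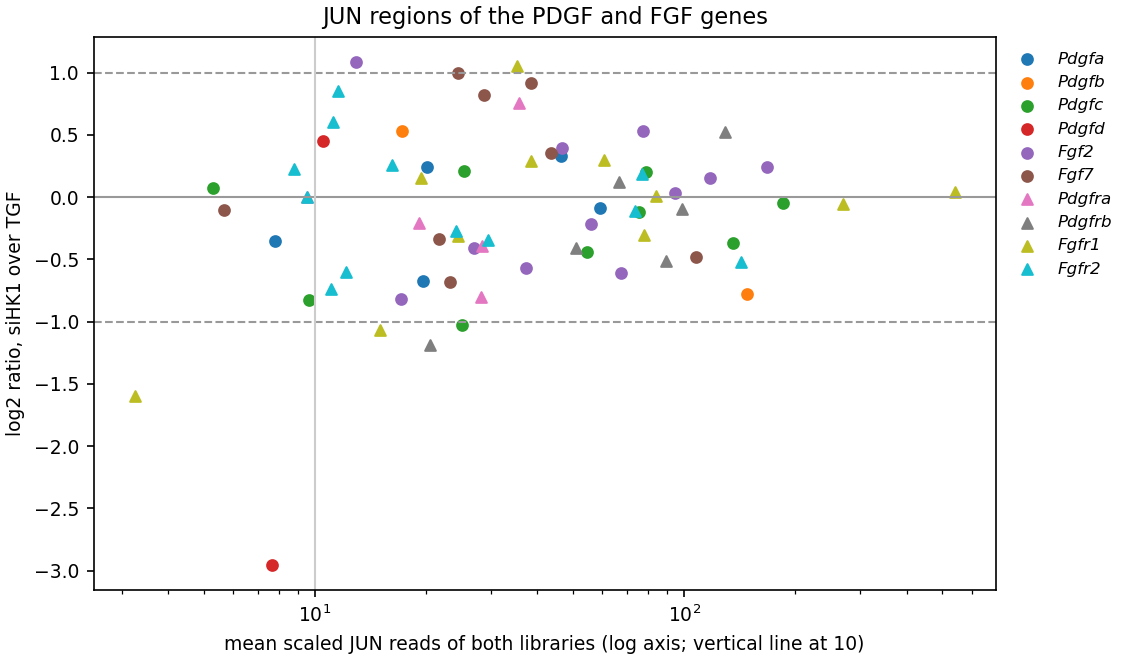
Each point is 1 of the 71 JUN regions, with its mean scaled reads (log axis) against its log2 ratio of siHK1 over TGF on the log2(scaled reads + 0.5) scale. Circles are ligand genes and triangles receptor genes, dashed lines mark 2-fold, and most regions above 50 reads lie within 1 log2 unit of 0.

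Per kb of listed region, Fgfr1 had the highest JUN level and Pdgfd the lowest. Levels in the TGF library, as reads per kb per 1000000 listed-region reads, were 58.0 for Fgfr1, 49.1 for Pdgfc, 44.1 for Pdgfb, 36.0 for Fgf2 and 30.6 for Pdgfrb. They were 24.4 for Fgfr2, 21.0 for Fgf7, 20.3 for Pdgfra, 18.5 for Pdgfa and 10.6 for Pdgfd. Counting intervals overlapped between Pdgfc and Pdgfb and among Fgfr2, Fgf7 and Pdgfra, and between Pdgfra and Pdgfa, and did not overlap between the other neighbours in this order. In the siHK1 library the levels were 58.8 for Fgfr1, 43.5 for Pdgfc, 37.2 for Fgf2, 29.5 for Pdgfrb, 28.4 for Pdgfb, 22.1 for Fgf7, 21.5 for Fgfr2, 19.0 for Pdgfra, 18.4 for Pdgfa and 6.36 for Pdgfd. In siHK1 the interval of Pdgfb overlapped those of Fgf2, Pdgfrb, Fgf7, Fgfr2 and Pdgfra, so its place among them could not be told. Those of Pdgfc and Fgf2 overlapped too, as did those of Fgf7, Fgfr2, Pdgfra and Pdgfa with each other, while Fgfr1 stood above the rest and Pdgfd below Pdgfa. The median of all genes was 18.7 in TGF and 18.6 in siHK1, and in siHK1 the level of Fgfr1 lay at percentile 97.9 and that of Pdgfd at percentile 5.41 of all genes. In TGF these percentiles were 97.8 and 15.2.

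**Figure D2:**
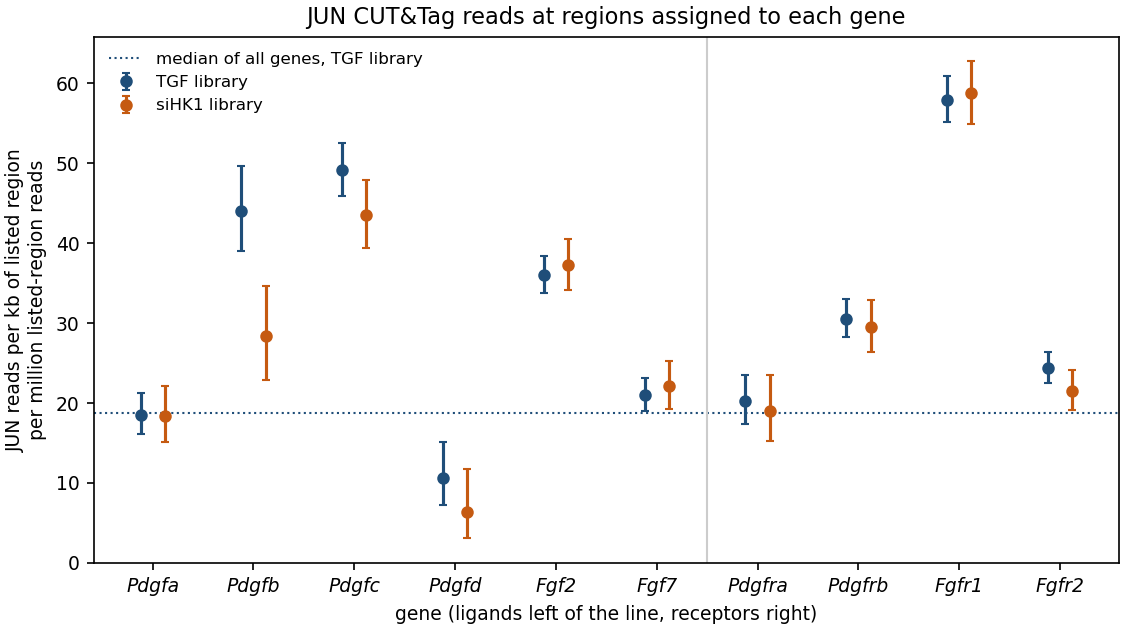
Points are JUN reads per kb of listed region per 1000000 listed-region reads for each gene in the TGF (blue) and siHK1 (orange) library, with exact Poisson 95% intervals that cover counting error only. Only the intervals of Pdgfb stand apart between the libraries, at 44.1 and 28.4.

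SMAD3, a factor that TGF-β receptors activate, gave few reads at these genes. The 45 regions held 214 reads in TGF and 212 in siHK1. Since the siHK1 table total was lower, this was a log2 ratio of 0.48 (0.20 to 0.76) at equal totals. The ratio was 0.25 with the authors' scaling and -0.0135 without scaling. The median over the 9 genes with a region was 0.75, against 0.22 over all 16630 genes. Pdgfb had no listed SMAD3 region. With the authors' scaling the median SMAD3 ratio over all listed regions was 0.14 lower, though single ratios moved either way.

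Fgfr1, Fgf7 and Pdgfrb held all SMAD3 regions with a mean of at least 10 scaled reads. At Fgfr1 the region chr8:25465636-25466297, inside its strongest JUN region, had 15 reads in TGF and 31 in siHK1, a ratio of 1.51 (0.61 to 2.54). A second Fgfr1 region in its own intron, chr8:25536501-25537360, had 11 and 17 reads (1.08, but 0.92 with the authors' scaling, and an interval of -0.06 to 2.36). Another, chr8:25468454-25468753, had 14 and 7 (-0.48, -2.05 to 0.90). In the Fgf7 intron chr2:126064904-126065535 had 6 and 17 reads (1.90, 0.59 to 3.63), and the promoter of Pdgfrb had 6 and 16 (1.81, 0.48 to 3.55). So 4 of these 5 regions (80.0%) were at least 2-fold higher in siHK1, against 23.5% of all SMAD3 regions at that level, and none was 2-fold lower, against 10.3%. All 4 overlapped a JUN region, and of 3918 overlapping pairs of JUN and SMAD3 regions with SMAD3 at that level 32% were at least 2-fold higher for SMAD3. With the authors' scaling 3 of the 5 passed. The Fgf7, Pdgfrb and second Fgfr1 regions had under 10 scaled reads in TGF and reached the mean only through siHK1, the library in which they were high, so these counts are descriptions. Over all 45 SMAD3 regions a peak had been called in both libraries at 2, in TGF alone at 19 (42.2%, against 47.2% of all) and in siHK1 alone at 23 (51.1%, against 47.7%).

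By summed SMAD3 reads, 3 of 9 genes (33.3%) had an interval wholly above 0, against 14.4% of all genes, and none one wholly below, against 8.89%. These were Pdgfrb with 11 and 21 reads (1.43, 0.31 to 2.63), Fgf2 with 23 and 31 (0.93, 0.10 to 1.77) and Fgfr1 with 56 and 67 (0.75, 0.22 to 1.29). With the authors' scaling these ratios were lower, at 1.13, 0.62 and 0.56, and had no interval of their own. Fgf7 with 21 and 26 reads (0.80, -0.08 to 1.71), Pdgfa with 18 and 18 (0.49) and Pdgfra with 2 and 4 (1.49) could not be told from 0 at this depth. Neither could Pdgfc with 35 and 22 (-0.17), Fgfr2 with 23 and 11 (-0.57) or Pdgfd with 25 and 12 (-0.56). At Pdgfd the region chr9:6131687-6132261, 36.3 kb upstream, went from 13 reads to 1 (-2.76, -8.61 to -0.47), below the minimum mean of 10. For Fgf2 the direction depended on the regions kept, since its only SMAD3 region at a promoter had 6 and 3 reads, a ratio of -0.51. No Fgf2 region reached a mean of 10. Regions listed through a siHK1 peak alone made up 4 of the 6 Fgf2, 3 of the 6 Fgfr1 and 1 of the 2 Pdgfrb regions in these sums.

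**Figure D3:**
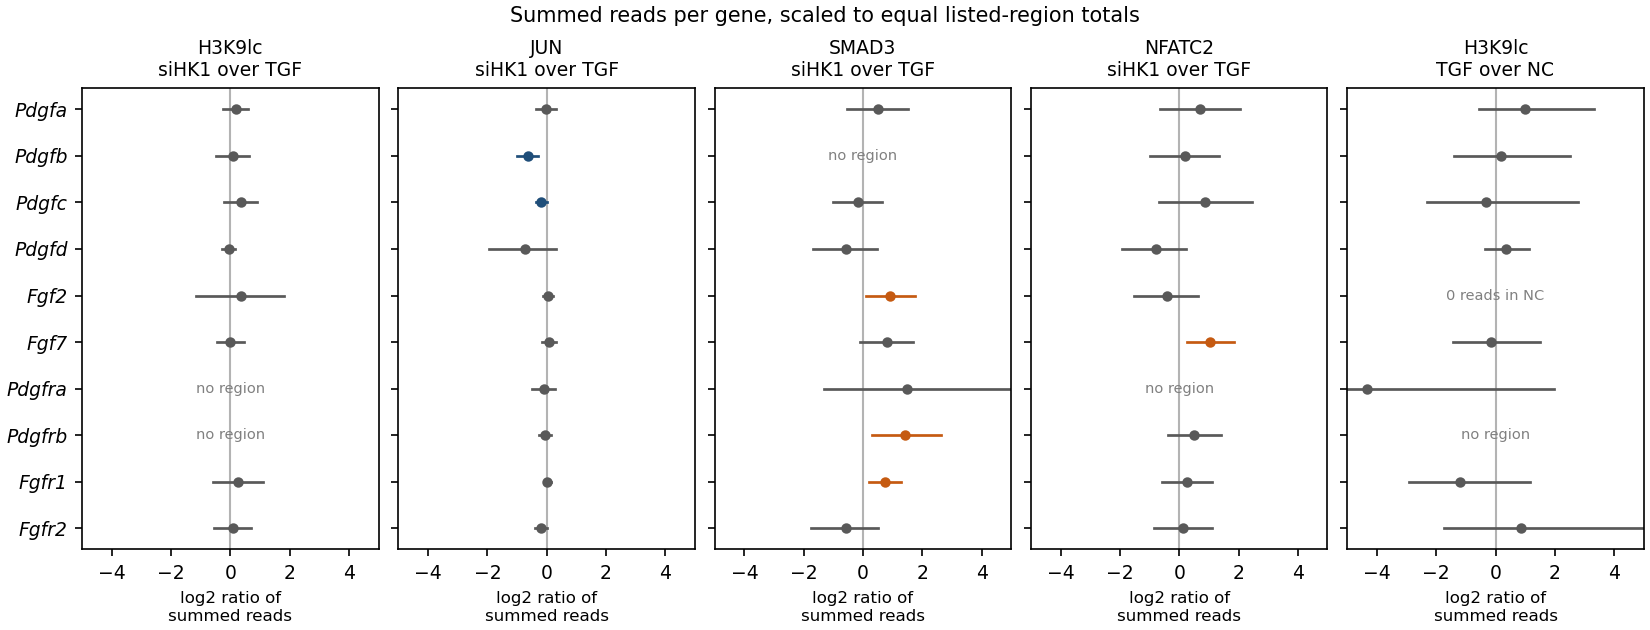
Log2 ratios of summed reads per gene with their 95% counting intervals, 1 panel per table, scaled to equal listed-region totals. Blue intervals lie wholly below 0 (Pdgfb and Pdgfc for JUN), orange wholly above (Fgf2, Pdgfrb and Fgfr1 for SMAD3, Fgf7 for NFATC2), and intervals are drawn only to 5 on either side.

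Where JUN and SMAD3 regions of 1 gene overlapped, their ratios could be set side by side. There were 13 such overlaps of at least 1 bp, in Fgf2, Fgf7, Fgfr1, Fgfr2 and Pdgfrb, with SMAD3 above 0 in 8 and JUN above 0 in 5. Across all genes SMAD3 was above 0 in 74.1% of 13553 such overlaps. In the Fgf7 intron JUN fell from 171 to 66 reads while SMAD3 went from 6 to 17. At the Pdgfrb promoter JUN had 79 and 32 reads and SMAD3 6 and 16. An exon of Fgf2os assigned to Fgf2 had 111 and 39 JUN reads against 2 and 8 of SMAD3. The strongest Fgfr1 region was level for JUN (726 and 402) and higher for SMAD3 (15 and 31). The difference between the factors at a place was not tested, since each has 1 library per condition.

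**Figure D4:**
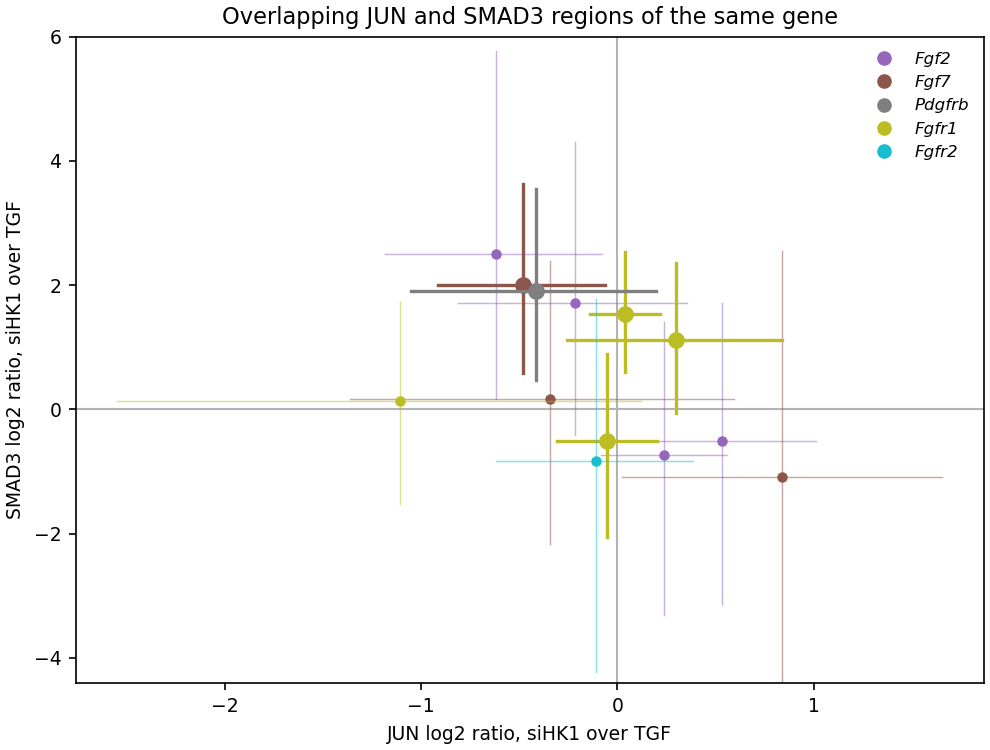
Log2 ratio of siHK1 over TGF for JUN (x axis) and SMAD3 (y axis) at 13 overlapping pairs of regions, with 95% counting intervals, drawn on the SMAD3 axis only to -4.4 and 6. Large points have a mean of at least 10 scaled SMAD3 reads, and those of Fgf7 and Pdgfrb sit at upper left with SMAD3 above and JUN below 0.

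NFATC2, a calcium-regulated factor, left too few reads for most comparisons. Its 62 regions held 200 reads in TGF and 150 in siHK1, at most 13 and 12 in any region, and Pdgfra had none listed. Only 2 regions reached a mean of 10 scaled reads. They were the Pdgfb region above and chr2:126028908-126029441, 5.2 kb upstream of Fgf7, with 11 and 12 reads (0.79, -0.48 to 2.15). Neither was 2-fold lower, against 9.33% of all regions at that level, or 2-fold higher, against 6.22%. By summed reads Fgf7 alone of 9 genes had an interval above 0, with 26 and 33 reads (1.04, 0.26 to 1.84), against 9.2% of all genes. None had one below, against 4.6%. Of the 7 Fgf7 regions 6 were listed through a peak in siHK1 alone, the library in which the sum was high, as were 38 of all 62 (61.3%, against 54% of all NFATC2 regions). The Fgf7 promoter region, chr2:126033652-126034040, had 1 and 7 reads. The median ratio of the 9 genes was 0.27 and that of all 17378 genes 0.18.

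H3K9 lactylation was listed at 8 of the 10 genes, with classes of position close to those of all regions. No H3K9lc region was listed for either PDGF receptor gene in the table of TGF and siHK1. Of the 52 regions at the other 8 genes, 35 (67.3%) were between genes, against 65.3% of all H3K9lc regions, 15 were intronic and 2 were at promoters (3.85%, against 6.78%). Of the 52 regions 26 were more than 50 kb from the gene they were assigned to, most of them upstream of Pdgfd. A peak had been called in both libraries at 6 of the 52 (11.5%, against 20.8% of all), in TGF alone at 25 (48.1%, against 54.7%) and in siHK1 alone at 21 (40.4%, against 24.2%).

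Pdgfd held 21 of the 52 H3K9lc regions. Its summed reads were 463 (TGF) and 254 (siHK1), a ratio of -0.05 on the log2 scale (-0.28 to 0.17). Most of these 21 lay in a long stretch upstream, as far as 387 kb from the gene, and a weak one with 2 reads in each library sat at the promoter. The strongest were chr9:5934260-5935765 with 76 and 64 reads (0.56, 0.06 to 1.06) and chr9:5925550-5926446 with 83 and 47 (-0.01), 232.8 and 242.1 kb upstream. The 2 H3K9lc regions past 2-fold with a mean of at least 10 scaled reads were also assigned to Pdgfd. One, chr9:5923037-5923405, had 23 and 5 reads (-1.33, -3.14 to 0.04), and the other, chr9:5867978-5868348, had 8 and 13 (1.44, 0.13 to 2.99).

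**Figure D5:**
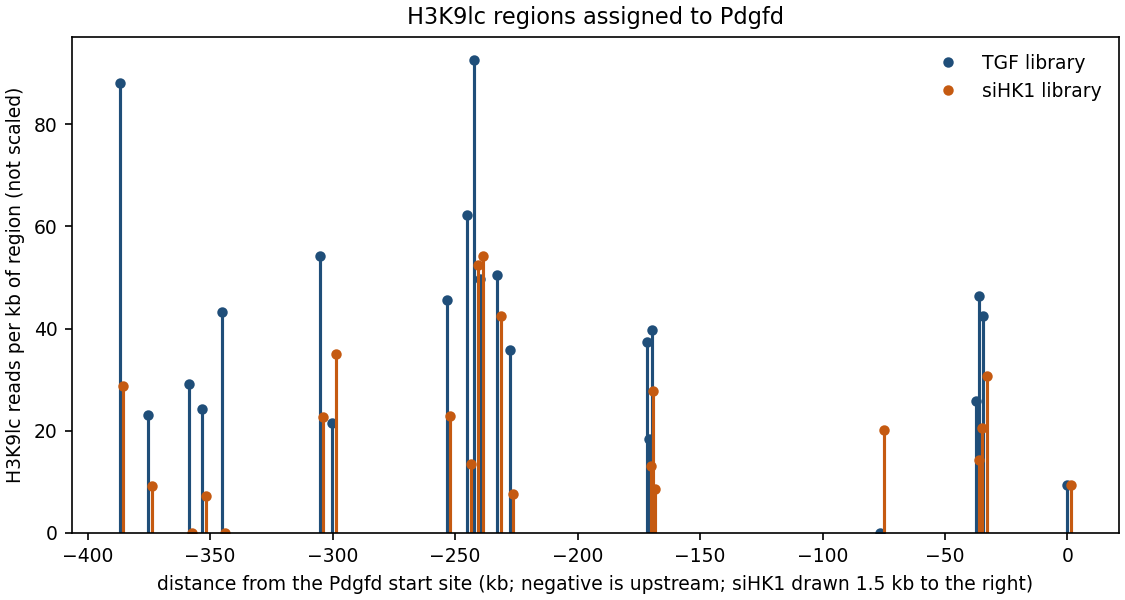
H3K9lc reads per kb, not scaled, at the 21 regions assigned to Pdgfd against their distance from its start site, in the TGF (blue) and siHK1 (orange) library. The regions form groups between 387 kb upstream and the start, and the 2 strongest by reads lie 232.8 and 242.1 kb upstream.

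The other ligand and receptor genes had fewer summed H3K9lc reads than Pdgfd, and no sum moved beyond counting error. Per kb per 1000000 listed-region reads, the level was 22.4 in TGF and 25.3 in siHK1 for Pdgfa, 19.3 in both for Fgf7 and 19.1 and 18.3 for Pdgfd, with overlapping intervals. The Pdgfa region chr5:139000907-139002236, 3.5 kb upstream, was the strongest of all with 108 and 63 reads (0.03), in gene sums of 126 and 81 (0.17, -0.25 to 0.59). Fgf7 had 112 and 64 reads (0.00439), Pdgfb 78 and 47 (0.08), Pdgfc 66 and 48 (0.35) and Fgfr2 61 and 37 (0.09). Fgfr1 had 32 and 22 (0.27) and Fgf2 11 and 8 (0.35). Of 19 regions with a mean of at least 10, 1 was 2-fold lower (5.26%, against 5.25% of all) and 1 higher (5.26%, against 3.53%). Each of these had under 10 scaled reads in 1 library and reached the mean only through the library in which it was high. These counts too are descriptions. None of 8 genes had an interval wholly below 0, against 7.23% of all genes, or wholly above, against 4.97%. The median was 0.13 over the 8 genes and -0.06 over all 12994. The members' sum was 0.05 (-0.10 to 0.21) at equal totals, -0.03 with the authors' scaling and -0.76 with none.

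The effect of TGF-β on H3K9lc could be read only through a shallow control. This table shares the TGF library with the one above, so both sets of ratios move with that library. The NC library had 35 reads at the 33 regions of these genes, from 0 to 5 in any region, and the TGF library 811. Pdgfd had 17 NC and 430 TGF reads in 16 regions, a log2 ratio of TGF over NC of 0.34 (-0.36 to 1.13). Pdgfa had 3 and 121 (1.01), Fgf7 5 and 90 (-0.15), Pdgfb 3 and 69 (0.20) and Pdgfc 2 and 32 (-0.32), all with intervals across 0. Fgfr2 had 1 and 36 reads, Fgfr1 3 and 26, Pdgfra 1 and 1, and Fgf2 0 and 6, and Pdgfrb had no listed region. Without an NC read no ratio is given for Fgf2.

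Of 5 regions with a mean of at least 10 in the control table, 2 were at least 2-fold higher in TGF, against 13.1% of all, and none 2-fold lower, against 8.06%. They lay upstream of Pdgfa (2 and 106 reads, 1.36, -0.48 to 4.47) and of Pdgfd (1 and 78 reads, 1.85, -0.56 to 7.28), and both intervals held 0. Both had under 10 scaled reads in NC and reached the mean only through TGF, so this count too is a description. None of 9 genes had an interval wholly above 0, against 4.83% of all genes, or wholly below, against 3.22%. A peak had been called in TGF alone at 30 of the 33 regions (90.9%, against 85.9% of all). The members' sum of 0.21 (-0.28 to 0.74) at equal totals became 0.66 with the authors' scaling and 4.53 with none.

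Places where marks and factors met were few. JUN regions of these genes overlapped a listed H3K9lc region in 4 of 71 cases (5.63%, against 6.07% of all JUN regions), a SMAD3 region in 14 (19.7%, against 18.1%) and an NFATC2 region in 9 (12.7%, against 15.4%). The Fgf7 intron was a place of JUN, SMAD3 and H3K9lc together, with 1 and 7 H3K9lc reads. So was the Fgfr1 region chr8:25491246-25491603, with 28 and 7 reads of JUN, 9 and 7 of SMAD3 and 2 and 6 of H3K9lc. The Fgfr2 region downstream of the gene had 229 and 86 JUN reads beside 7 and 6 of H3K9lc.

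RefSeq promoter windows of 300 bases (GRCm38, from 250 bases before the start to 50 after) were matched by symbol for 7 of the 10 genes, in 8 windows, and listed regions overlapped those of Fgf2 and Pdgfd only, both for JUN. Pdgfb, Pdgfrb and Fgfr1 were not matched. The upstream 250 bases of Fgf2 and Pdgfd are printed because a listed JUN region covers all of the Fgf2 stretch and the later part of the Pdgfd stretch. They lie at chr3:37348403-37348652 and chr9:6168236-6168485 on the plus strand, 5′ to 3′, with the short SMAD words CAGAC and GTCTG (the same word on the other strand) in capitals. TGANTCA was in none of the 8 windows, and in 7.81% of all 32851 RefSeq windows. The short SMAD word was in 49.6% of all windows, the palindrome GTCTAGAC, which does not contain it, in 0.213%, and the NFAT word GGAAA, on either strand, in 61.3%.
Fgf2 promoter: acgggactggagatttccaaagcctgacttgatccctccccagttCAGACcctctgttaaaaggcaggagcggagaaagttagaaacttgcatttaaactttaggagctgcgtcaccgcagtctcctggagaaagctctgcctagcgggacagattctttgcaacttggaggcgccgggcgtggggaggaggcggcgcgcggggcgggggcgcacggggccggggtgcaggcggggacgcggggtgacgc
Pdgfd promoter: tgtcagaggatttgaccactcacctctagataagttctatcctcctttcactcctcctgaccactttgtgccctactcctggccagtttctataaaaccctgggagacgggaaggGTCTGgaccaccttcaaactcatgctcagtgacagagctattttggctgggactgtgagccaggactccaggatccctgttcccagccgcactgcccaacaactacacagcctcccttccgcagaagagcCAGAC

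Other genes of the PDGF and FGF pathways were counted in the same way. From a list of 38 further ligands, receptors, adaptors, kinases, feedback genes and targets, 37 had JUN regions, of which 7 had a summed interval wholly below 0 and 3 wholly above, with a median of -0.02, beside 11.8% and 10.3% of all genes. For SMAD3, 33 were listed, with 3 below and 4 above and a median of 0.34, beside 8.89% and 14.4%. For NFATC2, 34 were listed, with none below, 1 above and a median of 0.36, beside 4.6% and 9.2%. For H3K9lc in siHK1 over TGF, 23 were listed, with 1 below, 1 above and a median of -0.08, beside 7.23% and 4.97%. For TGF over NC, 25 were listed, with none below, 1 above and a median of 0.33, beside 3.22% and 4.83%. Of the JUN genes below 0, Frs2, an adaptor of FGF receptors, had 422 and 142 reads (-0.68) and Gab1, a docking adaptor, 607 and 248 (-0.40). Of those above, Dusp6, a feedback phosphatase, had 832 and 531 (0.24). For H3K9lc, Dusp6 was the gene below 0, with 216 and 85 reads (-0.53), and Spred2, an inhibitor of this signalling, the one above, with 497 and 332 (0.23).

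Median levels for H3K9lc and NFATC2 were close to those of all genes, and the SMAD3 median was above it in siHK1 only. In reads per kb per 1000000 listed-region reads, the median of the genes with a region was 14.3 in TGF and 16.5 in siHK1 for H3K9lc, beside 16.2 and 15.9 for all genes. For SMAD3 it was 23.4 and 38.2 beside 25.1 and 28.0, and for NFATC2 19.7 and 23.9 beside 22.2 and 25.5.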

How the data were processed

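Mouse primary cardiac fibroblasts had been profiled with a CUT&Tag kit. The study's methods name Bowtie2, MACS2 peaks and GRCm39, while the submitters' processing notes name BWA 0.7.12 and mm10. All 48676 annotated transcripts found in GENCODE vM21 had its GRCm38 coordinates, so GRCm38 is used here. The authors deposited a raw read count per region and library, a mark of whether a peak was called, and normalized log2 values, which within a library are a linear function of log2(count + 0.5). Their columns of log2 ratios, standard errors, p-values and calls were not used, nor were 3 value columns of no sample in the series, nor the library titled TGF, whose labels name no antibody.

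Counts were scaled to equal totals over a table's listed regions. Region ratios are log2 of scaled reads + 0.5. Regions counted as changed have a mean of at least 10 scaled reads and a 2-fold ratio. Gene ratios are of summed reads with an exact 95% interval. Regions were named if they were a gene's strongest, lay at a promoter or changed in this sense, and others were added after their values were seen. Members, lists and rules were chosen with earlier results of these data known. Scripts were tested on simulated data, where fewer true changes were found in the shallow NC table than in the others. A single GENCODE transcript extends Fgfr2 to 2960.9 kb. Python 3.11.15, pandas 2.3.3, NumPy 2.4.6, SciPy 1.17.1, pysam 0.24.0 and matplotlib 3.10.9 were used.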

Additional observations from a re-analysis of the deposited data

Results flagged for a closer look

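At 2 places the SMAD3 and JUN ratios of siHK1 over TGF had opposite signs, with SMAD3 at least 2-fold higher and both factors at a mean of at least 10 scaled reads. In the Fgf7 intron the SMAD3 log2 ratio was 1.90 (6 and 17 reads) and that of JUN -0.48 (171 and 66 reads). At the Pdgfrb promoter the SMAD3 log2 ratio was 1.81 (6 and 16 reads) and that of JUN -0.41 (79 and 32 reads). Of the 5 pairs at these genes with both factors at that mean these were 2, against 19% of 3485 such pairs over all genes. Both SMAD3 regions had a called peak in siHK1 alone and reached the mean of 10 only through that library, so the count is a description and supports nothing. The JUN interval at Pdgfrb ran from -1.05 to 0.20, so its sign was not settled. Over all 13 pairs at any level, JUN was below and SMAD3 above 0 in 6, and JUN above and SMAD3 below 0 in 3. Those 3 were 2 pairs at Fgf2 (209 and 133 JUN reads beside 7 and 3 of SMAD3, 86 and 67 beside 6 and 3) and another in an intron of Fgf7 (28 and 27 beside 3 and 1). The difference between the factors was not tested, and each direction rests on 1 library per condition.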

How the results depend on the processing

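With 1 library per condition no replicate could be left out. No paired analysis was possible because no antibody had more than 1 library in a condition. The summed log2 ratio over all members' regions moved with the scaling and with the regions kept. At equal totals it was 0.05 for H3K9lc, -0.06 for JUN, 0.48 for SMAD3, 0.28 for NFATC2 and 0.21 for TGF over NC, and all but that of SMAD3 had an interval across 0. Without scaling, where libraries differ in total, it was -0.76, -0.95, -0.0135, -0.42 and 4.53, so the sign turned for H3K9lc, SMAD3 and NFATC2. Over promoter regions alone it was -1.19, 0.0777 and 1.15 for H3K9lc, JUN and SMAD3 and -1.52 for TGF over NC, and the sign turned for all of these but SMAD3. The H3K9lc value rests on 2 regions with 8 and 2 reads. The TGF over NC value rests on 1 region of Fgf2 (0 NC and 6 TGF reads) and 1 of Pdgfra (1 and 1). The SMAD3 ratio of Fgf2 turned to -0.51. Without regions between genes the members' sum was -0.06 for H3K9lc, -0.04 for JUN, 0.69 for SMAD3, 0.42 for NFATC2 and -0.26 for TGF over NC. The sign turned for H3K9lc and TGF over NC, though both values stayed within their equal-totals counting intervals. Scaled to regions with a peak in both libraries, TGF over NC was 0.91. With no minimum level, 2-fold lower regions numbered 10 (H3K9lc), 5 (JUN), 11 (SMAD3), 12 (NFATC2) and 2 (TGF over NC), and 2-fold higher ones 12 (H3K9lc), 15 (SMAD3), 21 (NFATC2) and 16 (TGF over NC). With a minimum of 20 there were 0 lower and 0 higher for H3K9lc, 1 higher for JUN and also 1 for SMAD3, but 0 for TGF over NC, as fewer regions remained. With the authors' values 0 JUN regions were 2-fold higher, and the SMAD3 sum over all members' regions was 0.25. Other than the scaling and level settings by their construction, the cause was not tested. Gene sums stayed within their counting intervals in all 44 cases with the authors' values and in all 44 with the peaks-in-both scaling, and 21 of 44 moved without scaling. No interval was computed under these settings, so whether a sum stayed clear of 0 was not assessed. Few reads limit SMAD3, NFATC2 and the NC library most.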
